A study of Mus musculus with 2 samples.

Results

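The 31 genes described here encode the enzymes of glycolysis, the lactate dehydrogenases, and the proteins that carry pyruvate and lactate across membranes. They were chosen by gene symbol from knowledge of the pathway and not by a cut on level, although earlier results of these data were known. All 31 were found among the 55536 genes of the tables. Hearts were taken from 2 males of B6CASTF1/J, an F1 hybrid mouse strain that crosses C57BL/6J with CAST/EiJ, at 25 days of age and with no treatment named. Total RNA of each heart, 300 ng per the labels, gave 1 library, and the gene counts summed to 38253821 in replicate 1 and 40655101 in replicate 2. The labels call the hearts biological replicates 1 and 2 and number the animals 3 and 4. Yet they list a single donor identifier for the pair, so that the spread between the libraries may be technical. There was 1 group, and no comparison between groups was possible.

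Glycolysis splits glucose into pyruvate in the cytosol. Pyruvate then enters mitochondria through a carrier or is reduced to lactate, which crosses the plasma membrane by monocarboxylate transporters. Most steps are served by several isozymes, encoded by separate genes and used to different extents in muscle, liver, brain and other tissues. The adult heart is known to draw most of its energy from fatty acids and to take up and oxidise lactate as well as glucose.

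Levels are given as TPM, an abundance corrected for transcript length and brought to a common total in each library, so that genes can be compared. Of the 31 genes, 24 reached 1 TPM in both hearts, where 21.3% of all genes and 49.6% of nuclear protein-coding genes did. The level of 100 TPM was reached in both hearts by 13 of the 31, and by 0.981% of all genes and 2.11% of nuclear protein-coding genes. The median of the 31 genes was 42.2 TPM, beside 1.09 over the 21938 nuclear protein-coding genes. In whole tissue, a low level cannot be told apart as few cells that express a gene or little RNA in each cell.

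The tissue label was checked against markers. All 6 heart muscle markers were above 100 TPM in both hearts and summed to 25619 in replicate 1 and 27522 in replicate 2, with Myh6, the alpha myosin heavy chain, at 8807 and 8307 TPM. Skeletal muscle markers summed to 2.84 and 2.81 TPM, and Myog was at a count of 0, which bears on the muscle isozymes below. Liver markers summed to 0.37 and 0.19 TPM with Alb at 0, and testis germ line markers to 0.06 and 0.03 with Prm1, Prm2 and Tnp1 at 0. The hearts differed in other cell markers: all 5 adipocyte markers summed to 221 and 31.4 TPM in replicates 1 and 2, and all 6 erythroid markers at 46569 and 23415.

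**Figure D1:**
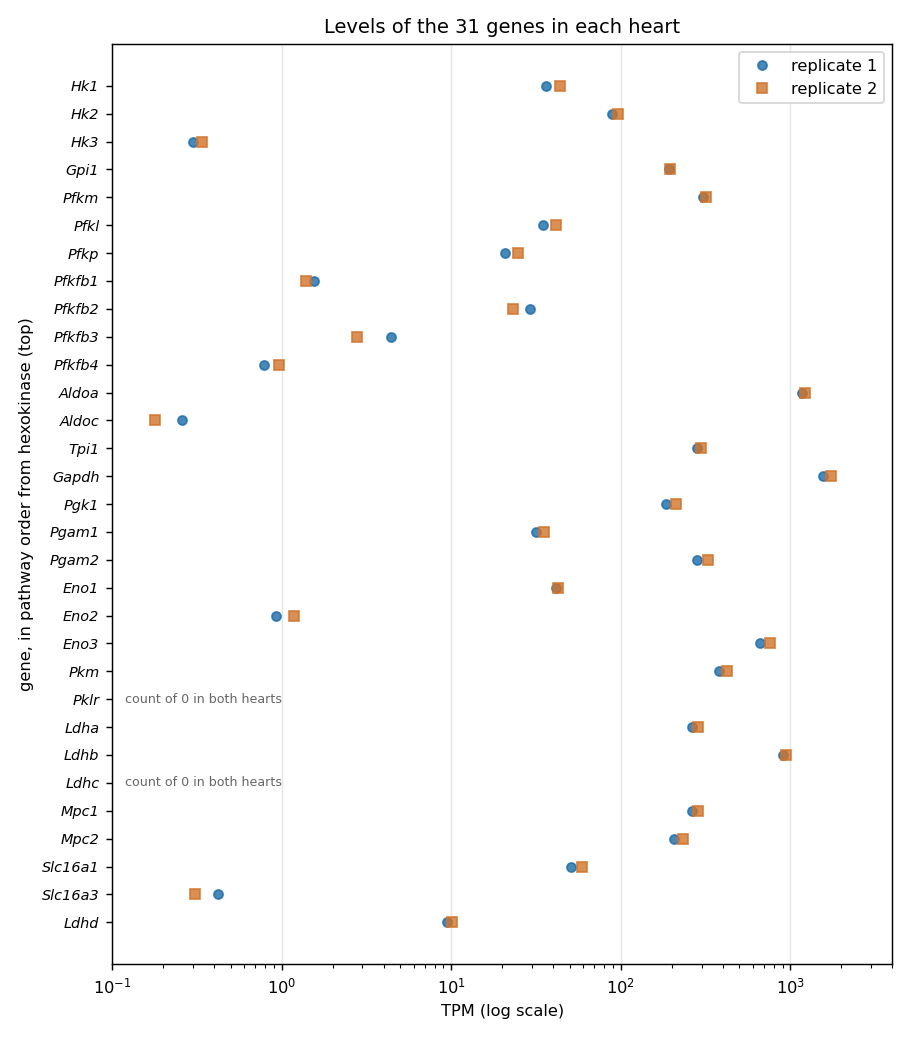
TPM of each gene (horizontal axis, log scale) in replicate 1 (circles) and replicate 2 (squares), ordered along the pathway. Levels run from a count of 0 for Pklr and Ldhc to 1641 TPM for Gapdh, and the marks of the hearts lie close together for most genes.

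For 9 steps the list held more than 1 isozyme gene, and each isozyme was expressed as its percent of the step's summed TPM within a heart, a share that does not depend on library scaling. One isozyme held over 50% in both hearts at all 9 steps and over 80% at 7. The median share of the leading isozyme was 90.0%. The forms known from muscle led at phosphofructokinase (Pfkm), phosphoglycerate mutase (Pgam2) and enolase (Eno3), the H form led at lactate dehydrogenase (Ldhb), and the liver and red cell gene of pyruvate kinase (Pklr) had no count.

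**Figure D2:**
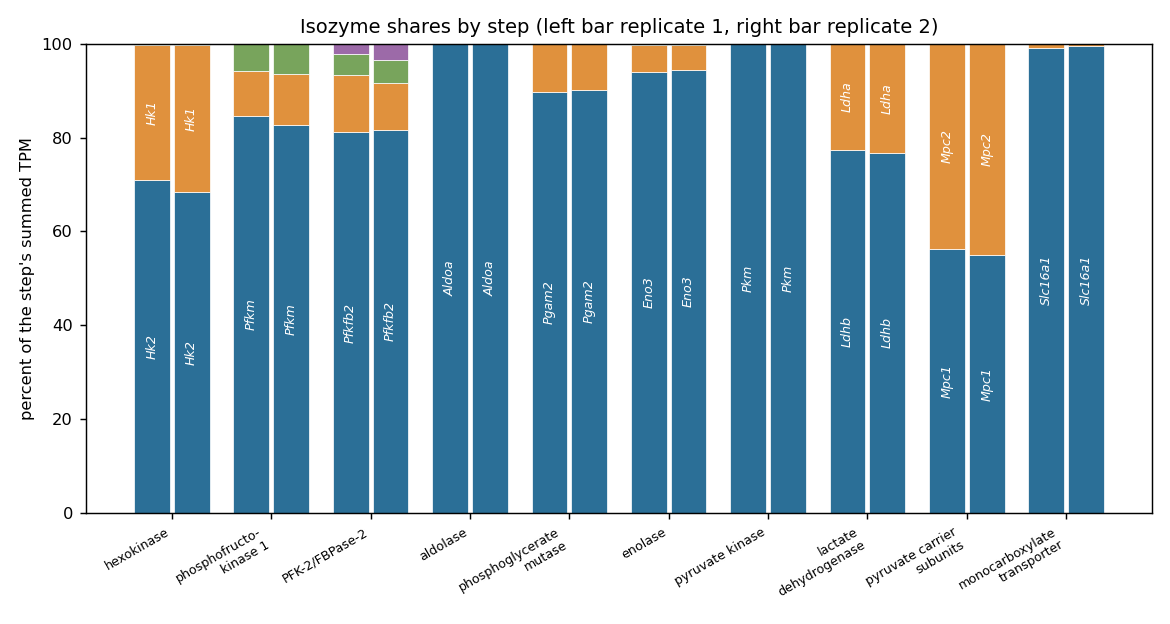
Percent of each step's summed TPM held by each gene (vertical axis) in replicate 1 (left bar) and replicate 2 (right bar), with the largest share at the bottom of each bar and names inside segments over 20%. Hk2, Pfkm, Pfkfb2, Aldoa, Pgam2, Eno3, Pkm, Ldhb and Slc16a1 form the lowest segment in both hearts, and the carrier subunits Mpc1 and Mpc2 are near even.

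Hexokinase phosphorylates glucose once it is inside the cell. Hk2 (ENSMUSG00000000628.10, chromosome 6, 82725025 to 82774454, minus strand), the form known from insulin-sensitive muscle and fat, had 88.9 and 95.8 TPM in replicates 1 and 2. Hk1 (chromosome 10, 62268855 to 62379908), the form present in most tissues, stood at 36.0 and 44.1 TPM. Hk2 was above Hk1 in both hearts and held 69.7% ± 1.90 (SD, n = 2) of the step, against 30.1% ± 1.90 for Hk1. This was the smallest leading share of the 9 steps. Hk3, known from blood cells, was at 0.30 and 0.34 TPM, or 0.241% of the step, from 22 and 28 counts. The ADP-dependent Adpgk, outside the set, was at 3.27 and 2.68 TPM. The short non-coding transcript Hk2-202 took 26.7% and 29.1% of Hk2 TPM in the first table and 0% and 0.829% in a second quantification the authors deposited, in which Hk2 held 61.8% ± 3.05 of the step.

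Glucose 6-phosphate is then turned into fructose 6-phosphate by the isomerase Gpi1 (chromosome 7, 34201330 to 34230336, minus strand), which has no second gene in the set. Gpi1 stood at 191 and 196 TPM. Its SD was 1.67% of the mean, the smallest of the 24 genes that reached 1 TPM in both hearts.

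Phosphofructokinase commits sugar to glycolysis, and works as a tetramer of subunits from 3 genes. The muscle subunit Pfkm (ENSMUSG00000033065.14, chromosome 15, 98092589 to 98132451, plus strand) stood at 304 and 317 TPM. The liver subunit Pfkl stood at 34.7 and 41.2 TPM, and the platelet subunit Pfkp at 20.7 and 24.7. Pfkm made up 83.7% ± 1.27, Pfkl 10.2% ± 0.782 and Pfkp 6.10% ± 0.488, in the same order in both hearts. On the log2 scale, after adding 0.1 TPM to each level, Pfkm exceeded Pfkl by 3.03 ± 0.13 and Pfkp by 3.77 ± 0.14.

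The Pfkfb genes encode bifunctional enzymes that make and remove fructose 2,6-bisphosphate, the strongest known activator of phosphofructokinase. Pfkfb2 (ENSMUSG00000026409.14, chromosome 1, 130689182 to 130729253, minus strand), known as the heart form, had 29.2 and 23.0 TPM in replicates 1 and 2. Pfkfb3, the inducible form with the highest kinase activity of the family, stood at 4.43 and 2.79 TPM. Pfkfb1, the liver and muscle form, stood at 1.56 and 1.40 TPM, and Pfkfb4, known from testis, at 0.79 and 0.97. Pfkfb2 led in both hearts with 81.4% ± 0.393 of the summed TPM, followed by Pfkfb3 with 11.1% ± 1.72, Pfkfb1 with 4.65% ± 0.443 and Pfkfb4 with 2.82% ± 0.879. The family summed to 32.1 ± 5.49 TPM, the lowest total of the 14 steps and transporters. Protein-coding transcripts held 32.4% of Pfkfb4, 68.2% of Pfkfb1, 73.8% of Pfkfb3 and 76.5% of Pfkfb2 TPM.

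Aldolase cleaves fructose 1,6-bisphosphate into 2 triose phosphates. Aldoa (ENSMUSG00000030695.16, chromosome 7, 126795234 to 126800751, minus strand), the muscle and red cell form, stood at 1178 and 1225 TPM, rank 25 among nuclear protein-coding genes. Aldoc, the brain form, was at 0.26 and 0.18 TPM from 10 and 8 counts. Aldoa held 99.98% of the step, with nearly nothing left for the other gene. Neuron and Schwann cell markers summed to 9.89 and 3.62 TPM, with Snap25 at 0.20 and 0.01.

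Triose phosphates are interconverted by Tpi1 (chromosome 6, 124810586 to 124814296, minus strand), which stood at 280 and 299 TPM. Gapdh (ENSMUSG00000057666.18, chromosome 6, 125161715 to 125166467, minus strand) oxidises glyceraldehyde 3-phosphate and is often used as a reference gene. It had the highest level of the set, 1550 TPM in replicate 1 and 1733 in replicate 2, rank 21 among nuclear protein-coding genes. This value rests on short transcripts. Gapdh-208, a processed transcript of 483 bases, took 73.0% ± 0.482 of Gapdh TPM, and the protein-coding transcripts alone came to 440 TPM. In the second quantification Gapdh-208 had none, the short coding Gapdh-207 took 47.8% ± 2.29, and Gapdh came to 3829 TPM. With coding transcripts of the first table alone, Gapdh would stand below Aldoa, Ldhb and Eno3. This order did not hold in the second quantification, where the coding Gapdh-203 and Gapdh-209 took a further 29.5% and 18.9% of Gapdh TPM. Aldoa came to 1569 TPM there, Ldhb to 1868 and Eno3 to 803. Phosphoglycerate kinase, Pgk1 (X chromosome, 106187100 to 106203699, plus strand), makes the first ATP of the pathway and stood at 184 and 213 TPM. The testis genes Gapdhs and Pgk2, outside the set, had a count of 0 in both hearts.

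Phosphoglycerate mutase moves a phosphate within phosphoglycerate. Pgam2 (ENSMUSG00000020475.3, chromosome 11, 5801640 to 5803733, minus strand), the muscle form, stood at 281 and 327 TPM. The brain form Pgam1 (chromosome 19, 41911923 to 41918660, plus strand) stood at 31.8 and 35.2. Pgam2 held 90.0% ± 0.321 of TPM. By estimated counts, which are not divided by length, it held 80.1%, its only annotated transcript being 840 bases long and the leading transcript of Pgam1 1775.

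Enolase makes phosphoenolpyruvate. Eno3 (ENSMUSG00000060600.15, chromosome 11, 70657202 to 70662513, plus strand), the muscle form, stood at 659 and 755 TPM, rank 55 among nuclear protein-coding genes. Eno1, the form of most tissues, stood at 41.7 and 42.7, and Eno2, the neuronal form, at 0.93 and 1.18. Eno3 held 94.2% ± 0.413, Eno1 5.64% ± 0.424 and Eno2 0.140% ± 0.0107. Eno1 had the largest share of reads in near-identical copies of all members. Eno1b and the pseudogene Gm4735, which share at least 50% of their 31-base words with Eno1, held estimated counts equal to 64.2% and 65.0% of its own. Counted with Eno1, they raised its share to 8.75% ± 0.732 and left Eno3 at 91.1% ± 0.721.

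Pyruvate kinase makes pyruvate and the second ATP. Pkm (ENSMUSG00000032294.17, chromosome 9, 59656368 to 59679375, plus strand) had 377 and 423 TPM in replicates 1 and 2. Pklr, the liver and red cell gene, had a count of 0 in both hearts, which allows up to 0.0195% and 0.0162% of the step if 3 counts are taken as the limit. All reads of the step therefore went to Pkm, and the forms of Pkm are described next.

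Pkm is spliced with 1 of 2 mutually exclusive exons. Exon 9 gives Pkm1, the form known from adult muscle and brain, and exon 10 gives Pkm2, the form known from embryonic and dividing cells. The exons are shown here because they alone distinguish the coding regions of both forms. In mm10 on the plus strand they lie at chr9:59675029-59675195 and chr9:59675568-59675734, with 372 bases between them. The sequences run 5′ to 3′ on the coding strand, and capitals mark the bases that differ when the exons are aligned without gaps.
Exon 9 (Pkm1): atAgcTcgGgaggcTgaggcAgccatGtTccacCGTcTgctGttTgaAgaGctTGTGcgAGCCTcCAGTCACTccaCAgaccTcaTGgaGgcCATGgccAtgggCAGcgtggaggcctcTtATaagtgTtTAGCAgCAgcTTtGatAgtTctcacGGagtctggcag
Exon 10 (Pkm2): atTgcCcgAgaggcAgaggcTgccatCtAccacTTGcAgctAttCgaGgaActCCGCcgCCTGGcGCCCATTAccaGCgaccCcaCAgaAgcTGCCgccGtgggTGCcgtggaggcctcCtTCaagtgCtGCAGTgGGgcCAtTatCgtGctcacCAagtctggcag
Both exons are 167 bases long, so that either keeps the reading frame. They differ at 64 positions, are 61.7% identical, and share no aligned run longer than 12 bases. A read that lies in either exon can therefore be told from one in the other.

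Transcripts were assigned by which of these exons the annotation gives them. In the first transcript table Pkm1 stood at 197 and 215 TPM and Pkm2 at 175 and 203. Pkm1 made up 52.9% of both forms in replicate 1 and 51.4% in replicate 2 (52.1% ± 1.04). In the second table Pkm1 stood at 211 and 245 TPM and Pkm2 at 223 and 265, and the Pkm1 share was 48.6% and 48.1% (48.3% ± 0.374). Which form was higher thus differed between the tables, while both hearts of a table lay on the same side. By estimated counts the Pkm1 share was 47.4% ± 1.02 in the first and 43.1% ± 0.354 in the second table. The full-length transcripts differ in length, 2041 bases for Pkm-202 with exon 9 and 2432 for Pkm-201 with exon 10, and the 391-base difference lies in their first and last exons. The share is an estimate over whole transcripts and not a count of reads on the exons. Transcripts with neither exon held 1.25% of Pkm TPM in the first table and 7.73% in the second, most of the latter in the short Pkm-206 (6.31% and 7.74%).

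**Figure D3:**
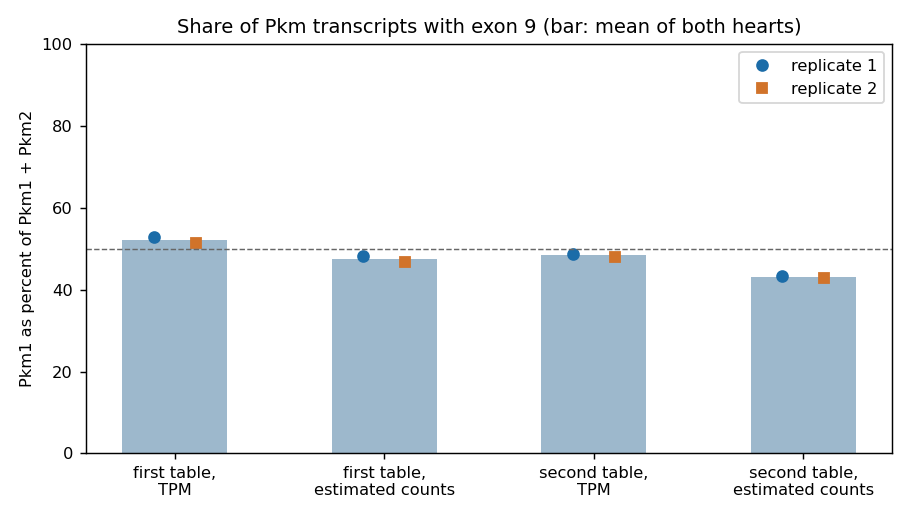
Pkm1 as percent of Pkm1 plus Pkm2 (vertical axis) by TPM and by estimated counts in each transcript table, with a bar for the mean, a circle for replicate 1 and a square for replicate 2. All values lie between 42.9% and 52.9%, and only those by TPM of the first table lie above the dashed line at 50%.

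Lactate dehydrogenase interconverts pyruvate and lactate as a tetramer of subunits. Ldhb (ENSMUSG00000030246.11, chromosome 6, 142490249 to 142507957, minus strand) encodes the H subunit known from heart, and had 903 and 949 TPM in replicates 1 and 2. Ldha (ENSMUSG00000063229.15, chromosome 7, 46841475 to 46855627, plus strand) encodes the M subunit known from skeletal muscle and liver, and stood at 264 and 286 TPM. Ldhb was the higher in both hearts and held 77.1% ± 0.373, so that Ldha still made up 22.9% of the step. Ldhc, the testis form, lies beside Ldha on chromosome 7 (46861203 to 46878142) and had a count of 0 in both hearts, which allows up to 0.00891% and 0.00783% of the step. The Ldhb share moved more between quantifications than between hearts, and was 84.7% ± 0.436 in the second, where Ldhb came to 1868 ± 124 TPM. There the 437-base Ldhb-202 took 37.2% of Ldhb TPM, beside 20.4% in the first. By estimated counts the share was 69.9%. Ldhd, a D-lactate dehydrogenase of another protein family found in mitochondria, stood at 9.48 and 10.1 TPM.

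Mpc1 and Mpc2 are partners in the mitochondrial pyruvate carrier rather than alternatives, and were left out of the count of isozyme steps. Mpc1 (chromosome 17, 8282904 to 8297661, plus strand) stood at 264 and 286 TPM and Mpc2 (chromosome 1, 165460637 to 165481214, plus strand) at 205 and 234. Mpc1 was above Mpc2 in both hearts, and the log2 ratio of Mpc2 over Mpc1 was -0.33 ± 0.05. This order was not shared by the second quantification, where the ratio was -0.06 in replicate 1 and 0.01 in replicate 2. Levels of the subunits moved with the processing as well. The pseudogene Mpc1-ps held counts equal to 14.7% and 14.3% of those of Mpc1, and with it Mpc1 came to 419 TPM. Protein-coding transcripts of Mpc2 alone came to 129 TPM, and the non-coding Mpc2-203 of 493 bases took 40.8% ± 1.73.

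Monocarboxylate transporters move lactate and pyruvate together with protons. Slc16a1 (ENSMUSG00000032902.1, chromosome 3, 104638668 to 104658462, plus strand), encoding MCT1, stood at 51.2 and 59.2 TPM. Slc16a3, encoding MCT4, the exporter known from glycolytic muscle, was at 0.42 and 0.31 TPM from 30 and 24 counts. Slc16a1 held 99.3% ± 0.208 of their sum. Slc16a7, encoding MCT2 and outside the set, was at 5.95 and 4.67 TPM, and with it and Slc16a8 counted Slc16a1 held 90.4% ± 2.28. Basigin (Bsg), the chaperone that brings MCT1 to the membrane, stood at 409 and 444 TPM, and embigin (Emb), the partner of MCT2, at 3.36 and 3.53.

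Summed over isozymes, the steps spanned 32.1 to 1641 TPM. Glyceraldehyde-3-phosphate dehydrogenase had the highest sum, followed by aldolase at 1202 ± 33.3 and lactate dehydrogenase at 1201 ± 48.2, whose values in the hearts overlapped. Enolase came next at 750 ± 69.0, then the pyruvate carrier at 495 ± 35.8. Pyruvate kinase at 400 ± 31.8, phosphofructokinase at 371 ± 17.0 and phosphoglycerate mutase at 338 ± 35.1 came in this order within each heart. The values of phosphofructokinase overlapped with those of both others, while pyruvate kinase and phosphoglycerate mutase did not overlap. Triose-phosphate isomerase followed at 290 ± 13.8, and phosphoglycerate kinase at 198 ± 20.5 overlapped with glucose-6-phosphate isomerase at 194 ± 3.22. The lowest were hexokinase at 133 ± 10.6, the monocarboxylate transporters at 55.6 ± 5.64 and the Pfkfb family. Part of this order changed in the second quantification, where lactate dehydrogenase came to 2206 ± 158 and aldolase to 1569 ± 118. There the pyruvate carrier at 896 ± 114 also had a higher mean than enolase at 859 ± 142. The means of the other steps kept their order. Among single genes, 13 of 30 neighbours in the order of levels had overlapping values, among them Pfkm, Pgam2, Tpi1, Mpc1 and Ldha.

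**Figure D4:**
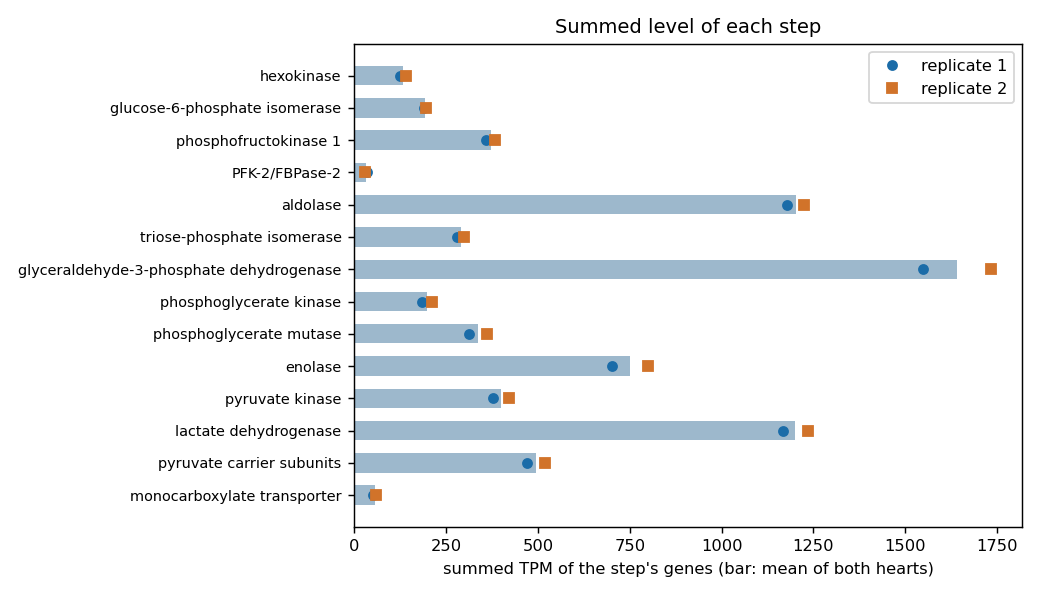
Summed TPM of each step's genes (horizontal axis), with a bar for the mean, a circle for replicate 1 and a square for replicate 2, ordered along the pathway. Glyceraldehyde-3-phosphate dehydrogenase, aldolase and lactate dehydrogenase reach at least 1167 TPM in both hearts, while hexokinase, the monocarboxylate transporters and the Pfkfb family stay at or below 140.2.

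Isozymes of a step were well separated in sequence. Over the 22 combinations of isozymes within a step, coding regions were 53.8% (Slc16a1 and Slc16a3) to 77.4% (Eno2 and Eno3) identical, and 20 combinations shared no 31-base word in any transcript. The exceptions were Pfkfb2 with Pfkfb4, which shared 6 words, and Pkm with Pklr, which shared 1. Copies elsewhere in the genome were closer than the isozymes. Of the 31 genes, 10 had at least 1 copy elsewhere in the annotation that shared at least 50% of its words, 55 copies in all, 43 of them of Gapdh. The copies of Gapdh held counts equal to 4.95% and 5.16% of its own, those of Pgk1 5.15% and 5.03%, and that of Ldhb 2.35% and 2.34%. Copies held over 10% of the member's count in both hearts only for Eno1 and Mpc1.

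Transcript use within the genes differed between the tables, as gene levels did. Of the 24 members at 1 TPM in both hearts, 23 were higher in the second quantification. Their median log2 ratio of second over first was 0.38, beside 0.27 over nuclear protein-coding genes at 1 TPM. Of the 29 members with counts in both hearts, 26 had the same leading transcript in both hearts in the first table, and 26 in the second. Only 18 had the same leader in both tables, and 15 of the 23 members with at least 100 counts in both hearts. Tpi1-205 (96.5% and 86.0%), Pgk1-201 (99.8% and 93.3%) and Pgam1-201 (99.0% and 98.5%) led in the first and second table alike. Ldha-202 took 98.8% ± 0.222 of Ldha in the first table and 28.6% ± 7.14 in the second, where Ldha-201 took 52.9% ± 2.67. Eno3-201 led Eno3 in the first table with 52.5% ± 2.47 and took 3.94% ± 0.217 in the second, where Eno3-202 held 86.3% ± 5.91.

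The other genes of the pathway place the members in their surroundings. For the entry of sugar, the insulin-responsive transporter Slc2a4 stood at 110 and 116 TPM, the transporter Slc2a1 at 2.62 and 2.85, and the muscle glycogen phosphorylase Pygm at 378 and 403. All 8 genes of pyruvate dehydrogenase and its kinases and phosphatase reached 1 TPM in both hearts, with Pdha1, the E1 alpha subunit, at 424 and 432 TPM and Pdk3 lowest at 1.32 and 1.35. All 7 genes of the malate-aspartate shuttle, which carries reducing equivalents of glycolysis into mitochondria, reached 10 TPM, from Slc25a13 at 43.0 and 44.4 to Mdh1 at 780 and 845. For Slc25a12, at 97.7 and 94.3 TPM, protein-coding transcripts alone came to a mean of 7.6 TPM. Of the 7 bypass and gluconeogenic genes, G6pc and Fbp1 had a count of 0, and the muscle form Fbp2 stood at 9.55 and 11.5 TPM.

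The hearts were compared by scaled counts, with a log2 ratio of replicate 2 over replicate 1 for the 12910 genes whose mean reached 1 CPM (counts divided by library size, on a fixed total). Of the 31 members 26 passed this filter, and none of them differed by 2-fold or more, where 1.22% of all genes did. At 1.5-fold the count was 1 of 26, beside 4.54% of all genes. The median absolute log2 ratio was 0.13 over the members and 0.12 over all genes. There is 1 library per heart, so the ratios have no replicate test, and their 95% intervals cover counting error only.

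The gene past 1.5-fold was Pfkfb3, with 406 and 257 counts in replicates 1 and 2 and a log2 ratio of -0.80 (interval -1.03 to -0.57). Pfkfb2 was also lower in replicate 2, with a log2 ratio of -0.34 (-0.43 to -0.26). The largest ratios in the other direction were 0.30 (0.21 to 0.39) for Pfkp and 0.27 (0.22 to 0.33) for Hk1, both from at least 1771 counts per heart. Intervals left out 0 for 15 members higher and 2 lower in replicate 2. No share of all genes is given beside this count, so it cannot be read as particular to the members. Intervals narrow as counts rise: that of Hk2, from at least 11824 counts per heart, was 0.006 to 0.078. They hold for this scaling only, and by spike-in counts the Hk2 ratio was -0.10. In all 22 of 26 members were higher in replicate 2, where 52.2% of all genes were. This direction rested on the scaling: by spike-in counts 8 of 26 members and 21.8% of all genes were higher in replicate 2, and the median log2 ratio of all genes moved from 0.01 to -0.13. Under both scalings Pfkfb2 and Pfkfb3 were lower in replicate 2, and Hk1, Pfkl and Pfkp were among those higher.

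**Figure D5:**
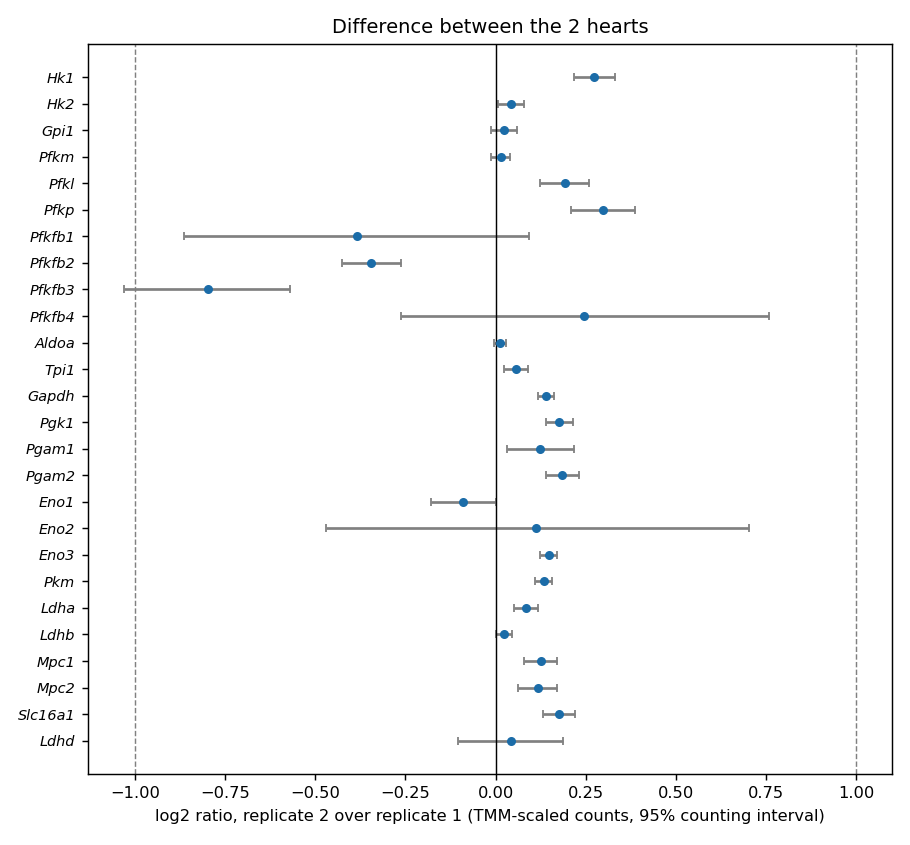
Log2 ratio of replicate 2 over replicate 1 (horizontal axis, scaled counts) for the 26 members past the filter, with 95% counting intervals as bars and dashed lines at a 2-fold difference. Pfkfb3 lies lowest at -0.80 and Pfkp highest at 0.30, and no point reaches a dashed line.

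Among 37 other genes of the pathway past the filter, 3 were 2-fold or more lower in replicate 2 and none higher. Of all genes, 1.22% were 2-fold or more apart in either direction. Pck1, the phosphoenolpyruvate carboxykinase of gluconeogenic tissues and fat, stood at 25.9 and 5.74 TPM (log2 ratio -2.32). Pygl, the liver glycogen phosphorylase, stood at 4.19 and 2.05 TPM (-1.02), and Pdk4, the kinase that switches off pyruvate dehydrogenase, at 501 and 250 (2.01-fold lower by scaled counts). Pygl and Pdk4 lay at the 2-fold line. They fell just short of it in the second quantification (-0.992 and -0.9998) and passed it by spike-in scaling (-1.17 and -1.15). Past 1.5-fold were also pyruvate carboxylase Pcx, at 23.1 and 13.2 TPM (-0.75), and Bpgm, the red cell enzyme that makes 2,3-bisphosphoglycerate, at 58.5 and 36.7 (-0.67). Of the adipocyte markers 4 of 5 passed the filter, and all 4 were lower in replicate 2, from -1.96 for Plin1 to -3.02 for Cfd, while Lep was at 0.17 and 0.11 TPM. The 6 erythroid markers were lower there by log2 ratios of -0.90 for Slc4a1 to -1.08 for Hba-a2. The part of these cells in the differences of Pfkfb3, Pfkfb2, Pck1, Pcx, Pygl, Pdk4 and Bpgm was not tested.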

How the data were processed

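Estimated counts, which need not be whole numbers, and TPM were deposited by the authors for each heart in a gene table and a first transcript table, both made from a transcriptome alignment, and in a second transcript table made from a read file, per the accompanying text files (mm10, GENCODE M21). The sources used here do not name tools or versions. Genes were matched by symbol and gene identifier. Aldoa had 2 identifiers, and the one with the higher count was used. Of 47 other pathway symbols 46 were found. The 97 spike-ins (193998 and 236086 counts) and 26248 transfer RNA rows (3 and 1.85 counts) were left out of library sizes.

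Values are TPM of the gene tables, as mean ± SD over 2 hearts. No p is given, because with 2 hearts the smallest two-sided p of an exact sign-flip test is 0.5. Pair ratios used log2(TPM + 0.1), which understates ratios over genes near 0. The hearts were compared on rounded estimated counts scaled by TMM (edgeR 4.0.16, R 4.3.3) at a mean of 1 CPM or more, with exact binomial 95% intervals. Reads carry no molecular identifiers and are not independent molecules, so intervals and limits cover counting error only; a count of 0 allows 3 counts, or 0.0784 and 0.0738 CPM. Near-identical copies share at least 50% of 31-base words with a member's transcripts. Coding regions were aligned with Biopython 1.88. Python 3.11.15 was used. Only the scaling and the ratio between hearts were tested on simulated counts.

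All members are named, and of the other genes those that give a list's range or a step's other isozymes; the genes past 1.5-fold between hearts, and some transcripts and marker genes, were chosen after their values were seen. The members, lists and comparisons were chosen with earlier results of these data known.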

Additional observations from a re-analysis of the deposited data

How the results depend on the processing

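The same isozyme led each of the 9 steps in 63 of 63 combinations of step and setting. The settings were posterior mean TPM, second quantification, protein-coding transcripts, estimated counts, copies added, and each heart alone. Each heart alone adds no check of the leader, because a leader was defined as leading in both hearts. The Hk2 share ran from 61.8% to 71.4% and the Ldhb share from 69.9% to 84.7%, and by estimated counts Ldhb (69.9%) was below Hk2 (71.4%). The median leading share of 90.0% was 89.5% in the second quantification, 89.4% with near-identical copies added and 83.4% by estimated counts. Each heart alone gave 89.8% to 90.3%. The Pkm1 share of 52.1% was 48.3% in the second transcript table and 47.4% by estimated counts, and 51.4% to 52.9% in each heart alone. Members at 1 TPM numbered 24 to 25 in each heart alone and 23 to 26 over the other settings, and 21 reached 10 TPM in both hearts. No member differed by 2-fold between hearts under any scaling, and 1 did at 1.5-fold. Adding copies and further isozymes was chosen after seeing the data. The cause of the differences between quantifications was not tested. No paired analysis was possible because there is only 1 group. Depth limits Hk3, Pfkfb1, Pfkfb4, Aldoc, Eno2, Slc16a3, Pklr and Ldhc, each with fewer than 100 counts in both hearts.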
